A study of Rattus norvegicus with 4 samples.

Results

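The 10 genes described here make, coat and break down stored triglyceride: Gpam, Agpat2, Lpin1, Dgat1 and Dgat2 of its synthesis, the lipid droplet proteins Plin2, Plin5 and Cidea, and the lipases Pnpla2 and Lipe. They were taken by symbol, through the RefSeq accession that the array design gives each probe. All 10 were on the array, with 12 probes in all, out of 26624 genes or unnamed accessions. Skeletal muscle of male rats aged 15 weeks was measured on 4 one-colour arrays. WT was Wistar muscle on 2 arrays. SPORTS, a Wistar-derived line known for high voluntary wheel running, gave 1 array from an exercised rat and 1 array from a sedentary rat. The source names leave the exercise state of the WT arrays open, and the design text calls the wild type sedentary. No label used here names the muscle, the kind or length of exercise, the genetic basis of the line, or whether the WT arrays came from separate animals. The p-values below therefore measure only the spread between these arrays, which may be technical. No exercised WT rat was among the groups, so line and exercise cannot be told apart on the exercised SPORTS array.

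Triglyceride is built by adding fatty acyl chains to a glycerol backbone in steps carried out by acyltransferases and a phosphatase, and is stored in droplets under a coat of perilipins and related proteins. Lipases release the fatty acids again, and in muscle this store sits beside the mitochondria and supplies fuel during work. Slow, oxidative fibres are known to hold more droplets than fast fibres.

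A value below is the log2 processed signal of a probe minus the 75th percentile of its array, so 0 is the level of the 75th percentile and 1 unit is a factor of 2. Levels of different probes are not comparable. Processed signals had a median over probes of 90.4 and 89.1 in WT, 60.9 in exercised and 89.6 in sedentary SPORTS muscle, and 46.0 to 50.3% of probes were well above background. All 4 skeletal muscle markers on the array (Acta1, Ckm, Des and Myog) were well above background on every array. Of 5 heart markers, Myh6 was well above background on every array, at 8.33 on each WT array. Tnni3 was so on all but the exercised SPORTS array, and Nppa, Nppb and Myl7 were above background on none. The 2 SPORTS arrays stood apart from WT, and from each other, in fibre type markers. The summed level of 10 fast fibre markers, in multiples of the 75th percentile, came to 1202 and 1222 for WT, 3188 for exercised SPORTS and 371 for sedentary SPORTS, and that of 10 slow fibre markers was 2094, 2040, 446 and 1966 in the same order. The 9 adipocyte markers summed to 21.4, 26.9, 10.2 and 19.5, with 4 or 5 of them above background on each array, and Lep, Adrb3, Acvr1c and Slc7a10 above background on none. The 6 macrophage markers summed to 2.40, 1.62, 0.654 and 4.15, with 4, 4, 2 and 6 above background. Of 8 brown adipocyte markers only Cidea and Cox8b were detected, and Ucp1, Elovl3, Dio2, Otop1, Zic1 and Lhx8 were not above background on any array. In bulk muscle, fewer cells of a type and less RNA per cell cannot be told apart.

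**Figure D1:**
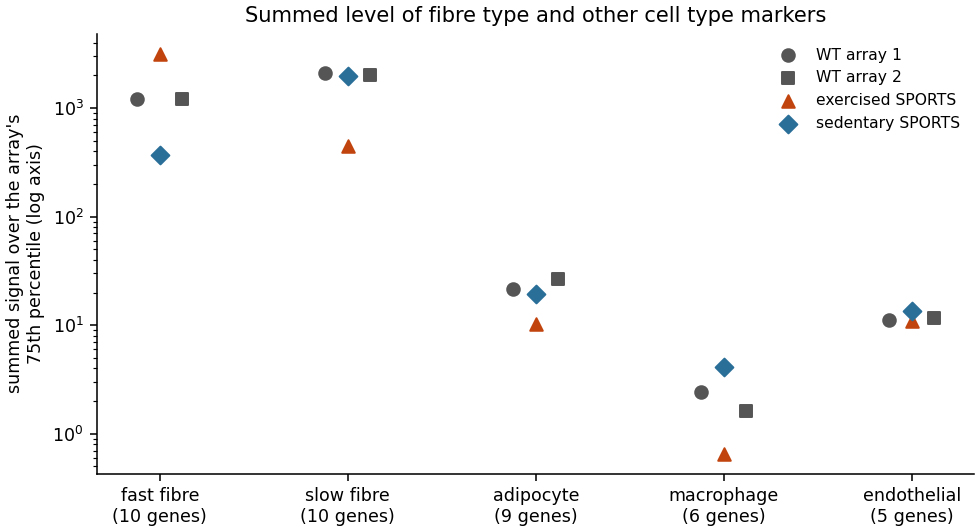
Summed signal of each marker list in multiples of the array's 75th percentile (log axis), one point per array. Fast fibre markers were highest on the exercised SPORTS array (3188) and lowest on the sedentary one (371), while slow fibre markers were low on the exercised array alone (446), and the WT arrays nearly coincided in both.

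Most of the 10 genes were lower in SPORTS muscle, but the 2 SPORTS arrays shared only part of that pattern. Dgat2, Plin5 and Pnpla2 were low on both SPORTS arrays by similar amounts. Lipe was low on both but well above background on neither. Gpam and Agpat2 were low on both but much lower on the exercised one, and Lpin1, Plin2 and Cidea lay on opposite sides of WT. A gene is said below to rise or fall only where its adjusted p in the limma fit was below 0.05. Against WT, 7 of the 10 genes fell and 1 rose on the sedentary SPORTS array, where 3.45% of all 13326 genes tested fell and 2.82% rose. On the exercised SPORTS array 8 fell and 1 rose, against a background of 26% lower and 27.3% higher. The median difference of the 10 genes was -0.88 for sedentary SPORTS and -1.02 for exercised SPORTS, and over all genes it was -0.01 and 0.00. Both SPORTS arrays lay below both WT arrays for 7 of the 10 genes, and above for 0, while the shares of all genes were 22.3% and 21.4%. The WT arrays differed by at most 0.12 in these genes, with a median of 0.04, against a median of 0.07 over all genes. The 10 genes were chosen with earlier results of these data known, so their counts beside all genes only describe them. Lipe, counted among the falls, met the filter on dim genes through the WT arrays alone. Lpin1 and Lipe were not well above background on the sedentary array.

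The 2 comparisons with WT share both WT arrays, and their only replicates are that pair (1 residual degree of freedom). limma moderates the spread of each gene towards a variance pooled over all genes tested. For Cidea, whose WT arrays differed by 2.4e-05, the SE of 0.062 thus came from the pooled variance. Each SPORTS array was thus assumed to vary as WT does. With no filter on dim genes, none of the 10 passed for sedentary SPORTS (adjusted p 0.0755 to 0.180 by limma), while 9 still passed for exercised SPORTS.

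**Figure D2:**
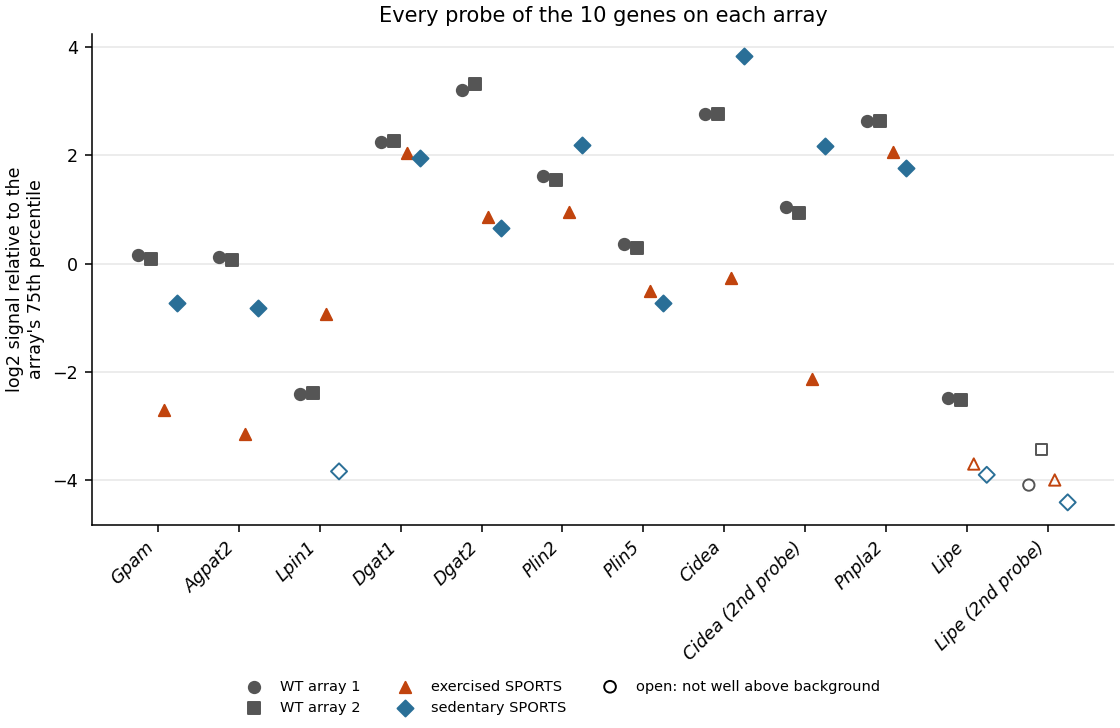
Level of each of the 12 probes on each array, as log2 signal relative to the array's 75th percentile, with open symbols where a probe was not well above background. The WT pair lies close together for every probe above background, both SPORTS arrays lie far below it for Dgat2, and they lie on opposite sides of it for Lpin1, Plin2 and both probes of Cidea.

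Gpam and Agpat2, acyltransferases of the early steps, were low in both SPORTS rats and lowest in the exercised one. Gpam, the mitochondrial acyltransferase that commits glycerol phosphate to lipid synthesis, read 0.15 and 0.09 on the WT arrays, -0.72 on the sedentary and -2.71 on the exercised SPORTS array. Agpat2, the acyltransferase of the next step, read 0.12 and 0.07 on WT, -0.82 on sedentary and -3.14 on exercised SPORTS. For both genes each SPORTS array was below both WT arrays, and the exercised array was the lowest of the 4. Gpam fell 1.80-fold on the sedentary array (log2 difference -0.85 ± 0.07, SE of the fit, adjusted p = 0.0427) and 7.09-fold on the exercised array (-2.83 ± 0.07, adjusted p = 0.00424). Agpat2 fell 1.88-fold (-0.91 ± 0.07, adjusted p = 0.0396) and 9.41-fold (-3.23 ± 0.07, adjusted p = 0.00424). The exercised array was 3.95-fold below the sedentary one for Gpam and 5.02-fold for Agpat2, a difference of single arrays with no test. With normexp background correction, an alternative that starts from the spot signal and its local background, Agpat2 was at -2.47 on the exercised array against WT and at -1.58 against the sedentary array. The slow fibre and adipocyte sums given above were also lowest on the exercised array, and their part in the result was not tested.

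Because these neighbours in the pathway moved together, the 250 bases before their annotated starts are shown, from RefSeq on build GRCr8. Promoters were found for 7 of the 10 genes, and those of Dgat1, Dgat2 and Lipe are not shown. Capitals mark matches on either strand to the nuclear receptor core AGGTCA, the E-box CACGTG, the GC box GGGCGG, the TATA box (TATAAA) and the CCAAT box. The Gpam promoter, chr1:264175912-264176161 on the minus strand, held 1 CCAAT box, on the reverse strand, at -174 to -170 from the start. The Agpat2 promoter, chr3:29826158-29826407 on the minus strand, held 6 GC boxes, 2 of them overlapping by 1 base, and 78.4% G or C against 51.2% in the Gpam promoter and in the median promoter. The GC box occurs in 30.5% and the CCAAT box in 34% of the 33465 RefSeq promoters of that length, and the pair shared none of the motifs searched.
Gpam: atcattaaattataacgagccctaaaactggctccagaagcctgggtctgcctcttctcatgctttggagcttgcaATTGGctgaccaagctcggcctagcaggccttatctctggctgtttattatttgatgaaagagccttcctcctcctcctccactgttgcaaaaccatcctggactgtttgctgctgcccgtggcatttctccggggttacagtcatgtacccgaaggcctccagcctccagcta
Agpat2: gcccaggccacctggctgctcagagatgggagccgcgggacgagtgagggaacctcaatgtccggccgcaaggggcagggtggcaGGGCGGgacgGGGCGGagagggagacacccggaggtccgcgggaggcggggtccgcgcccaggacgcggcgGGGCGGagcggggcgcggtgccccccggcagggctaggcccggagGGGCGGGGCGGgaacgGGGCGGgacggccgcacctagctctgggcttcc

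Lpin1, the phosphatase that makes diacylglycerol and also acts as a nuclear coactivator, went against its neighbours on the exercised array. It read -2.40 and -2.39 in WT, -0.93 in the exercised rat and -3.84 in the sedentary SPORTS rat, where it was not well above background. The exercised array was the highest of the 4 and the sedentary array the lowest. Lpin1 rose 2.76-fold with the exercised rat (1.46 ± 0.06, adjusted p = 0.00468) and was at least 2.63-fold lower in the sedentary SPORTS rat (adjusted p = 0.0327). The exercised array was at least 7.25-fold above the sedentary one. With normexp background correction the measured differences were smaller than these bounds, at -0.85 for sedentary SPORTS against WT and 1.98 between the SPORTS arrays on the log2 scale. A bound sets the dim array at its lowest signal well above background, -3.79 on the sedentary array, where the probe's own value was lower. Over 10 settings the measured difference from WT for the exercised rat ranged from 1.13 to 1.69.

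The enzymes of the last step parted. Dgat2, the diacylglycerol acyltransferase linked to newly made fatty acids, had processed signals of 10086 and 10798 on the WT arrays, 1764 on the sedentary and 1579 on the exercised SPORTS array. Relative to the 75th percentile these were 3.20 and 3.32 for WT, 0.67 for sedentary and 0.87 for exercised SPORTS. The SPORTS arrays lay close to each other and far below WT, with a gap of 0.20 between them, while the WT arrays were 0.12 apart. Dgat2 fell 6.04-fold on the sedentary array (-2.59 ± 0.09, adjusted p = 0.0319) and 5.24-fold on the exercised array (-2.39 ± 0.09, adjusted p = 0.00444). Its fall was the largest of the 10 genes on the sedentary array. Dgat1, the other enzyme of that step, which can re-esterify fatty acids from outside the cell, read 2.24 and 2.26 on WT, 1.96 on sedentary and 2.05 on exercised SPORTS. Both SPORTS values were below both WT values, but neither difference passed: -0.29 ± 0.06 for sedentary (adjusted p = 0.0903) and -0.20 ± 0.06 for exercised SPORTS (adjusted p = 0.0844), the latter turning to 0.021 when arrays were scaled by their median.

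The droplet coat proteins did not move as a group. Plin5, the perilipin of oxidative tissues that tethers droplets to mitochondria, read 0.37 and 0.29 on the WT arrays, -0.74 on sedentary and -0.51 on exercised SPORTS. Both SPORTS arrays were below both WT arrays. Plin5 fell 2.09-fold (-1.07 ± 0.07, adjusted p = 0.0391) and 1.78-fold (-0.84 ± 0.07, adjusted p = 0.00982) in turn. The slow fibre sum was close to WT on the sedentary array, where Plin5 was lowest, and far below WT on the exercised array, and its part in the result was not tested. Plin2, the widely expressed coat protein that is stable only on droplets, read 1.62 and 1.54 on WT, 2.18 on sedentary and 0.95 on exercised SPORTS. The sedentary array was above and the exercised array below both WT arrays. Plin2 fell 1.55-fold on the exercised array (-0.63 ± 0.08, adjusted p = 0.0151), and its difference on the sedentary array was 0.61 ± 0.08 (adjusted p = 0.0539, and 0.0170 to 0.130 over all settings, below 0.05 under 3 of them).

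Cidea, a protein of the contact sites through which droplets fuse, best known from brown fat of mice, had the widest span of the 10 genes. Its brighter probe gave processed signals of 7410 and 7310 on the WT arrays, 15902 on the sedentary and 718 on the exercised SPORTS array. On the log2 scale that was 2.76 on each WT array, 3.84 on sedentary and -0.27 on exercised SPORTS. A separate probe read 1.04 and 0.94 on WT, 2.17 on sedentary and -2.13 on exercised SPORTS, in the same order and well above background on all arrays. Cidea rose 2.12-fold on the sedentary array (1.08 ± 0.06, adjusted p = 0.0367) and fell 8.14-fold on the exercised array (-3.02 ± 0.06, adjusted p = 0.00424). By the separate probe the differences were 1.18 ± 0.08 (adjusted p = 0.0374) and -3.12 ± 0.08 (adjusted p = 0.00408), in a fit of every probe. The exercised array was 17.2-fold and 19.6-fold below the sedentary one by the respective probes. The defining brown fat genes Ucp1, Elovl3 and Dio2 were not above background on any array. White adipocyte genes moved on the exercised array too: Adipoq (-2.97, adjusted p = 0.0156) and Cfd (-2.76, adjusted p = 0.00803) fell, while Fabp4 (-0.15, adjusted p = 0.271) and Retn (-0.80, adjusted p = 0.217) did not pass. On the sedentary array, where Cidea was highest, the fast fibre sum was the lowest and the macrophage sum the highest of the 4 arrays. The part of these markers in the result was not tested.

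The promoters of the 3 droplet genes are shown for comparison, since Plin2 and Cidea lay above WT on the sedentary and below it on the exercised array and Plin5 lay below on both. Capitals are as above. Plin2, chr5:106229019-106229268 on the minus strand, the upstream of its 2 RefSeq starts, held 1 E-box, found in 5.59% of promoters, and 1 GC box. Plin5, chr9:1033285-1033534 on the minus strand, held the only AGGTCA among the 8 promoters of these genes, a core found in 14.1% of all promoters, with 2 adjacent GC boxes and 1 CCAAT box. Cidea, chr18:63164567-63164816 on the plus strand, held 2 GC boxes overlapping by 1 base. A direct repeat of AGGTCA 1 base apart, with up to 2 mismatches, is the kind of element PPAR and RXR bind. It was in 3.15% of all promoters and in 0 of these 8, and the TATA box, in 12.9% of all, was in 0 of them. These matches describe letters in a window of 250 bases and say nothing about binding.
Plin2: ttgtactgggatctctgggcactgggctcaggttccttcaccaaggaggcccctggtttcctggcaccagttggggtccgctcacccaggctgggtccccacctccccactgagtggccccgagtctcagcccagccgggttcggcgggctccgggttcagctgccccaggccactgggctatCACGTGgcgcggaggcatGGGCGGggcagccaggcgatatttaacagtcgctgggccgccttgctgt
Plin5: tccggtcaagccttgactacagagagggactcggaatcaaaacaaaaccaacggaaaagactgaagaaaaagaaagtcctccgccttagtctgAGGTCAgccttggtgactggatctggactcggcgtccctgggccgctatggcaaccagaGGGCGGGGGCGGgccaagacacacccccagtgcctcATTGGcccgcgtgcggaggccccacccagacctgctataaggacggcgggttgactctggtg
Cidea: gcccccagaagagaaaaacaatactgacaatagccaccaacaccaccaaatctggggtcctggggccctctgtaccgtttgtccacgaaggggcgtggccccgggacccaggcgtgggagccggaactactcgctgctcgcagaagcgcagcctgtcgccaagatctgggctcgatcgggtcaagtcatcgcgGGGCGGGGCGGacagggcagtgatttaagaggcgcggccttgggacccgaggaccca

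Both lipases were lower in both SPORTS rats. Pnpla2, adipose triglyceride lipase, which takes the first fatty acid off a triglyceride, read 2.63 on each WT array, 1.77 on sedentary and 2.07 on exercised SPORTS. Both SPORTS values lay well below the WT pair, whose gap was 0.01. Pnpla2 fell 1.81-fold (-0.85 ± 0.06, adjusted p = 0.0394) and 1.48-fold (-0.56 ± 0.06, adjusted p = 0.0134). Lipe, hormone-sensitive lipase, which acts on diacylglycerol, read -2.48 and -2.52 on WT, -3.90 on sedentary and -3.70 on exercised SPORTS. It was well above background on the WT arrays and on neither SPORTS array, so it met the filter on dim genes through WT alone. The filter thus favoured a lower SPORTS value, and no p-value is given for the single SPORTS arrays. Lipe was at least 2.45-fold lower on the sedentary array and at least 1.91-fold lower on the exercised array. With normexp background correction the measured differences were smaller than these bounds, at -0.93 and -0.55 on the log2 scale. Its separate probe was not above background on any array and gave no comparison.

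**Figure D3:**
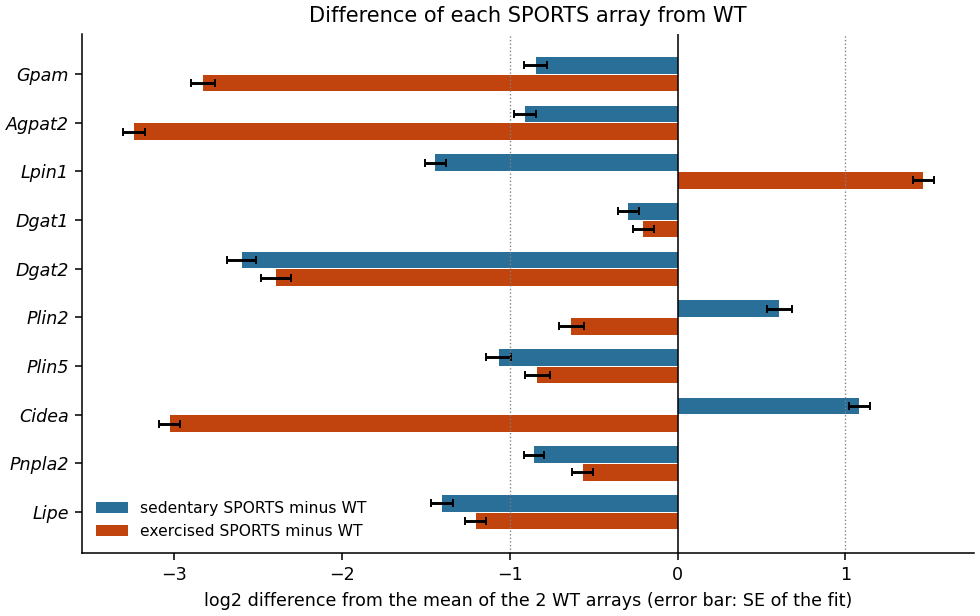
Difference of each SPORTS array from the mean of the 2 WT arrays on the log2 scale for the 10 genes, with the SE of the fit as error bar and dotted lines at a 2-fold change. The bars are of similar length for Dgat2, Plin5, Pnpla2 and Lipe, but Lipe was not well above background on either SPORTS array. The exercised bar is much the longer for Gpam and Agpat2, and the bars point in opposite directions for Lpin1, Plin2 and Cidea.

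Taking both SPORTS arrays as a group against WT, none of the 10 genes passed, as 0% of all genes did. Unadjusted p was below 0.05 for 4 of the 10, Dgat2, Plin5, Pnpla2 and Lipe, and for 982 of all 13326 genes. Dgat2 had the largest difference among them, -2.49 ± 0.16 (adjusted p = 0.261). Plin5 was at -0.95 ± 0.16 (adjusted p = 0.466), Pnpla2 at -0.71 ± 0.17 (adjusted p = 0.570) and Lipe, with the mean of the SPORTS arrays at least 2.16-fold lower, had an adjusted p of 0.322. The adjusted p of the other 6 genes was 0.741 to 0.999. Lipe entered this test through the WT arrays alone, which favours a lower SPORTS value. Leaving out 1 SPORTS array from this fit repeats the comparison of the other SPORTS array with WT given above, so it adds no separate result.

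Between the SPORTS rats, 4 genes were at least 2-fold lower in the exercised one (Gpam, Agpat2, Plin2 and Cidea) and Lpin1 was at least 2-fold higher, where 12.8% of all genes were 2-fold lower and 9.11% higher. Dgat1, Dgat2, Plin5 and Pnpla2 differed by 0.09 to 0.29 on the log2 scale between these arrays. Lipe read 0.20 apart, but it was well above background on neither, so its gap was not measured. With 1 array per condition there is no test of these differences. Scaling arrays by their median moved the median of all genes in exercised SPORTS against WT from 0.00 to 0.23, and the split of all genes that passed from 3634 higher and 3463 lower to 5571 and 2505. It left the counts of the 10 genes at 1 higher and 8 lower. The split at 2-fold between the SPORTS arrays moved from 1214 higher and 1706 lower to 1663 and 1354, and that of the 10 genes stayed at 1 and 4.

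The wider pathway was read from 4 lists of genes, 51 genes tested in all, with the 10 genes above among them. On the exercised array 13 of the 51 rose and 20 fell, and 19 rose and 20 fell when arrays were scaled by their median. The 10 genes, chosen with earlier results of these data known, gave 8 of the falls and 1 of the rises under either scaling. Over all genes tested 27.3% rose and 26% fell on that array, and 2.82% rose and 3.45% fell on the sedentary one. Of 17 triglyceride synthesis genes tested, 4 fell and 0 rose on the sedentary SPORTS array, and all 4 were among the 10 genes above. On the exercised array 8 fell and 4 rose, and the list medians were -0.21 for sedentary and -0.36 for exercised SPORTS against WT, beside -0.01 and 0.00 over all genes. The 12 not described above had medians of -0.11 for sedentary and -0.20 for exercised SPORTS. On the exercised array 5 of them fell (Mogat1, Gk, Plpp3, Acsl1 and Agpat4) and 3 rose (Gpd1, Agpat1 and Gpat4). Of these, Plpp3, Acsl1, Agpat4, Agpat1 and Gpat4 are named after their values were seen, as are Fitm2, Lipa and the regulators Nr1h3, Srebf2, Ppard and Ppargc1b below. Gpd1, which makes glycerol phosphate from a glycolytic intermediate, read 2.60 and 2.55 on WT, 2.42 on sedentary and 6.56 on exercised SPORTS. It rose 15.8-fold on the exercised array (3.99 ± 0.07, adjusted p = 0.00424) and was 17.7-fold above the sedentary one. Gpd1 is known to be rich in fast, glycolytic fibres, and the fast fibre sum was also highest on that array, and its part in the result was not tested. Mogat1, which acylates monoacylglycerol, read -2.09 and -2.07 on WT, -1.69 on sedentary and -5.11 on exercised SPORTS, where it was not above background, and was at least 2.56-fold below WT there (adjusted p = 0.00424). Gk, glycerol kinase, was also not above background on the exercised array, at least 4.20-fold below WT (adjusted p = 0.00647).

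Of 10 lipid droplet genes tested, Plin5 fell and Cidea rose on the sedentary array, and 4 fell and 3 rose on the exercised array, with medians of 0.04 and -0.09. The 3 of 10 that rose are near the 27.3% of all genes. Among those not described above, Fitm1, a muscle-rich protein of droplet formation, read 6.09 and 6.15 on WT, 6.18 on sedentary and 6.68 on exercised SPORTS and rose 1.48-fold there (0.56 ± 0.07, adjusted p = 0.0156). Aup1, a droplet and endoplasmic reticulum protein, rose 1.81-fold on the exercised array (0.86 ± 0.06, adjusted p = 0.00735), and Hsd17b11, another droplet protein, fell 1.49-fold (-0.58 ± 0.07, adjusted p = 0.0167). Fitm2 rose as well (0.30, adjusted p = 0.0427). Neither Aup1 nor Hsd17b11 passed on the sedentary array. The 7 droplet genes other than Plin2, Plin5 and Cidea had a median difference of 0.03 on the sedentary and 0.19 on the exercised array.

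Of 12 lipolysis genes tested, 3 fell and 1 rose on the sedentary array, and 6 fell and 1 rose on the exercised array, with medians of -0.16 and -0.84. Pnpla2 and Lipe, described above, are among those that fell on each array. Lipe, not well above background on either SPORTS array, met the filter on dim genes through the WT arrays alone, which favours a lower SPORTS value. The 10 others had medians of -0.13 and -0.84. Over all genes tested, 3.45% fell and 2.82% rose on the sedentary array, and 26% fell and 27.3% rose on the exercised one. G0s2, the inhibitor protein of Pnpla2, read 4.49 and 4.54 on WT, 5.36 on sedentary and 2.89 on exercised SPORTS. It rose 1.80-fold on the sedentary array (0.85 ± 0.07, adjusted p = 0.0408), where Pnpla2 itself fell, and fell 3.09-fold on the exercised array (-1.63 ± 0.07, adjusted p = 0.00460). Lpl, the lipase that brings fatty acids in from circulating lipoproteins, read 3.44 and 3.36 on WT, 2.60 on sedentary and 0.49 on exercised SPORTS. It fell 1.74-fold on the sedentary array (-0.80 ± 0.07, adjusted p = 0.0464) and 7.51-fold on the exercised array (-2.91 ± 0.07, adjusted p = 0.00424), the same order as Gpam and Agpat2. On the exercised array Abhd6, a monoacylglycerol lipase, fell 2.26-fold (-1.18 ± 0.07, adjusted p = 0.00637). Ces1d, a carboxylesterase with lipase activity, was at 0.90 ± 0.31 there (adjusted p = 0.104), and the gene that rose was Lipa, the lysosomal acid lipase (0.45, adjusted p = 0.0308).

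Of 12 regulators of lipid genes tested, 0 passed on the sedentary array, and 5 rose and 2 fell on the exercised array, with medians of -0.14 and 0.34. Of all genes, 27.3% rose and 26% fell on the exercised array, and 2.82% rose and 3.45% fell on the sedentary one. Those that rose were Rxrg, Nr1h3, Srebf2, Ppard and Nrip1, and those that fell Pparg and Ppargc1b. Rxrg, a nuclear receptor partner of the PPARs, read 2.64 and 2.73 on WT, 1.96 on sedentary and 3.81 on exercised SPORTS and rose 2.17-fold on the latter (1.12 ± 0.08, adjusted p = 0.00708). Pparg, the receptor that drives fat storage in adipocytes, fell 3.16-fold on the exercised array (-1.66 ± 0.22, adjusted p = 0.0179), and was at -0.09 ± 0.22 on the sedentary array. Nrip1, a corepressor of oxidative genes, rose 1.40-fold on the exercised array (0.49 ± 0.11, adjusted p = 0.0452) by the brighter of its 2 probes. The adipocyte marker sum was lowest on the exercised array as well, and its part in the fall of Pparg was not tested.

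**Figure D4:**
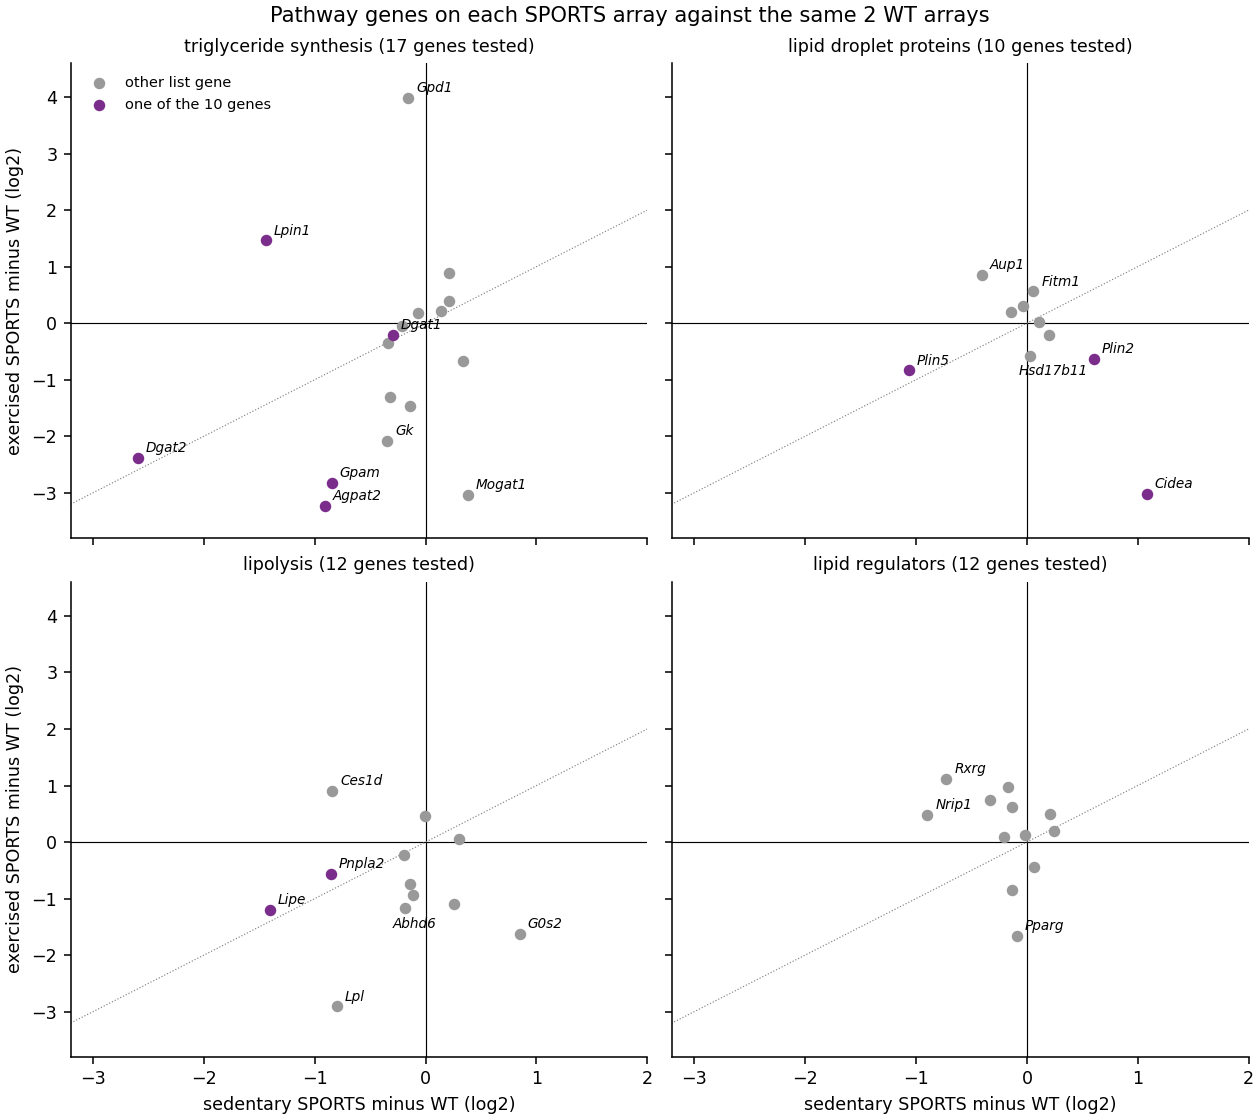
Log2 difference from WT on the sedentary (horizontal) and exercised (vertical) SPORTS array for each gene tested in 4 pathway lists, with the 10 genes in purple and a dotted line where both differences are equal. Dgat2, Plin5, Pnpla2 and Lipe lie near that line, Lipe with both SPORTS values not well above background. Gpam, Agpat2 and Lpl lie below the line, and Gpd1 lies highest at 3.99 on the exercised array.

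The genes most like Dgat2 were sought among the 8477 named genes tested, by the Euclidean distance between the 4 array values after each gene was centred on its WT mean. Retsat, retinol saturase, at a distance of 0.41, read 1.66 and 1.64 on WT, -0.71 on sedentary and -1.07 on exercised SPORTS. Or10am5, annotated as an olfactory receptor, also at 0.41, read 0.46 and 0.34 on WT, -1.82 on sedentary and -1.93 on exercised SPORTS. Mylk3, a myosin light chain kinase, was the nearest at 0.33, but it was not above background on either SPORTS array, and the mean of these arrays was at least 1.40-fold below WT. Since these 3 genes were picked by closeness to Dgat2 on the same 4 arrays, their low SPORTS values follow from the choice.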

How the data were processed

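Per the labels' protocols, total RNA was amplified to Cy3-labelled cRNA. The submitters' processing notes name Agilent Feature Extraction 10.7.1.1 for the scans. All 4 arrays share 1 slide, per the file headers. The deposited intensity is the processed signal, background-subtracted within each array per the file headers. The authors also deposited a table of log2 values for these arrays, centred on each probe's median (column medians 0.02 and -0.02 for WT, 0.17 exercised, -0.15 sedentary). Its differences between arrays matched the log2 processed signal within an offset of 0.0032, so scale, centring and direction are known. It was an alternative source.

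Control and outlier spots were left out, which dropped 352 of 30367 probes, and spots of a probe were averaged on the log2 scale. The array's 75th percentile over probes was subtracted. Accessions were matched to RefSeq symbols (assembly GRCr8), which named 59.4% of the 30015 probes used. The header's build is older, so no gene coordinates are given. Of several probes of a gene the brightest was tested, if well above background on at least 2 of 4 arrays, which left 13326 genes. No probe was saturated, and the number of arrays limits the precision. limma 3.58.1 in R 4.3.3 fitted SPORTS against WT as 2 against 2 arrays, and a model of 3 groups gave each SPORTS array against WT. The fits were tested on simulated data in which all arrays of a gene varied alike and both SPORTS arrays shared each change. That simulation cannot show whether a lone SPORTS array varies as WT does. Two-sided p-values were adjusted by Benjamini-Hochberg over all genes tested, with 0.05 as threshold. Differences between the SPORTS arrays were counted at 2-fold. For a gene not well above background on an array, a bound ("at least") sets that array at the higher of its lowest signal well above background and the probe's own value. Its adjusted p is of the measured values.

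The genes and the lists were chosen with earlier results of these data known. The text names all 10 genes, and from each list those that passed in sedentary SPORTS against WT and up to 3 more by the size of the difference between the SPORTS arrays, except 1 list gene that is not reported here. Other scalings (median, quantile), normexp with offset 50, filters, a floor on dim values, single probes, a variance trend and left-out arrays were tried. Promoters came from a RefSeq table of GRCr8.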

Additional observations from a re-analysis of the deposited data

Results flagged for a closer look

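For 3 of the 10 genes the SPORTS arrays lay on opposite sides of both WT arrays. The exercised minus sedentary difference, on the log2 scale, was 2.90 for Lpin1 (measured, with the sedentary value not well above background), -1.24 for Plin2 and -4.11 for Cidea. Among the other pathway genes named it was 4.14 for Gpd1, -3.42 for Mogat1 (with the exercised value not well above background), 1.26 for Aup1, -2.47 for G0s2, 1.74 for Ces1d, 1.84 for Rxrg and 1.38 for Nrip1. These differences were not tested, since each condition has 1 array and both are read against the same WT pair. Such opposite positions were found for 30% of the 10 genes and for 37.6% of all 13326 genes tested (5013 genes), so they were no more frequent among the 10 genes than on the array as a whole.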

How the results depend on the processing

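For the 10 genes, exercised SPORTS against WT changed direction in 1 value of a single gene under another setting, Dgat1 at 0.021 when scaled by the median. Dgat1 passed there with quantile normalization and with a variance trend, giving 10 genes. In sedentary SPORTS against WT no gene changed direction, and with a variance trend Dgat1 and Plin2 passed there too, giving 10 genes. With no filter on dim genes 0 of the 10 passed, 0 of all genes (836 otherwise) and 0 of the 51 pathway genes (10 otherwise). With a variance trend 18 pathway genes passed. For all genes the count in that comparison was 1611 with a floor, 2170 for genes above background on all 4 arrays, 2487 with normexp and 2816 with a variance trend. Between the SPORTS arrays 4887 genes were 2-fold apart with no filter, against 2920. In SPORTS against WT 1 gene of all passed with normexp and 1 with quantile normalization. Leaving out single arrays, that comparison passed 0 to 9 of the 10 genes, 0 to 7097 of all genes and 0 to 33 pathway genes. The highest counts came without the sedentary array, which repeats exercised SPORTS against WT. Leaving out the exercised array repeats sedentary SPORTS against WT, so neither adds a separate result. The difference ranged over left-out arrays from -3.02 to 1.08 for Cidea, from -1.44 to 1.46 for Lpin1 and from -0.63 to 0.61 for Plin2, with the exercised array out at 1.08, -1.44 and 0.61. Plin2 was at 0.11 when scaled by the median and 0.028 without WT replicate 1. The cause was not tested. Leaving out a WT array from the model of 3 groups leaves no residual degree of freedom, so those values have no test. No paired analysis was possible because each SPORTS group has 1 array and shares fewer than 2 replicate numbers with WT. Lipe on both SPORTS arrays and Lpin1 on the sedentary one are limited by background.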
